A study of Mus musculus with 22 samples.

Results

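The cytosolic ribosome is built from a small subunit and a large subunit, and each protein of it is made from its own gene. The 81 genes described here are those protein-coding genes whose symbol marks them as a cytosolic ribosomal protein (Rpl or Rps with a number, plus Rplp0, Rplp1, Rplp2, Rpsa and Fau), out of 29367 genes in all, and they were chosen by name and not by any measured value. 32 belong to the small subunit and 49 to the large subunit. Proteins whose symbols do not match, such as Rps3a1 and Rack1, are given separately. The genes lie on 20 chromosomes.

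The libraries hold mRNA bound to HA-tagged ribosomes of astrocytes from the optic nerve head (ONH), where retinal axons leave the eye, and the optic nerve proper (ONP), the myelinated part behind it. All mice were a cross of B6J.129(Cg)-Rpl22tm1.1Psam/SjJ (RiboTag, in which Cre switches the Rpl22 gene to an HA-tagged form) with B6.Cg mice that carry the GFAP-Cre transgene 73.12Mvs/J. The genotype is labelled WT in the deposited record, and by the methods the mice were Cre-positive and homozygous for the tagged allele (Rpl22HA/HA Cre+). All had received microbeads in the eye, a procedure that raises intraocular pressure. Tissue was taken 7 days after the injection (ONH, 4 libraries; ONP, 4 libraries) or 30 days after it (ONH, 7 libraries; ONP, 7 libraries), and each library pooled 4 mice, 2 male and 2 female. By the methods both regions were dissected from the same mice. At day 30 the regions carry the same replicate numbers, and the labels do not say that same-numbered libraries share mice. Uninjected mice were not analysed here. The tag is limited to cells in which the GFAP promoter has driven Cre, and markers of other cells were still present: summed over 10 markers each, astrocyte genes held 15262.7 to 33749.2 CPM (counts scaled to a common library total, with TMM factors) over the groups, and oligodendrocyte genes held 13878.1 to 41864.2 in the ONH and 26134 to 108311 in the ONP. Libraries had 16292489 to 33307092 counts. In such bulk samples fewer cells of a type and less RNA per cell cannot be told apart.

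The ribosome holds nearly all of its proteins in equal number, and their genes are expressed in every cell type. Most of their mRNAs begin with a terminal oligopyrimidine (TOP) tract, a cytosine at the first base followed by a run of C and T, through which mTORC1 and the RNA-binding protein LARP1 adjust their translation. Because tagged ribosomes were pulled down, the counts measure ribosome-bound mRNA and not total mRNA.

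Sequences around the annotated start (30 bases before it and 20 from it, RefSeq, GRCm38.p6, 5′ to 3′) show what this tract looks like in genes whose values are given below, next to 2 members without it. Capitals mark the annotated first base with the C and T run that follows it directly, or the first base alone where it is no pyrimidine. The windows are chr11:114668550-114668599 on the plus strand for Rpl38, chr3:90213629-90213678 on the minus strand for Rps27, chr7:141447621-141447670 on the plus strand for Rplp2, chr4:86857348-86857397 on the minus strand for Rps6, chr14:18270967-18271016 on the minus strand for Rpl15, chr4:152325696-152325745 on the plus strand for Rpl22 and chrX:74270786-74270835 on the plus strand for Rpl10.
Rpl38: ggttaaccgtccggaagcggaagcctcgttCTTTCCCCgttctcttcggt
Rps27: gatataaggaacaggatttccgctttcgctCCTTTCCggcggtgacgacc
Rplp2: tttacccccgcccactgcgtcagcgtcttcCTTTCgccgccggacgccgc
Rps6: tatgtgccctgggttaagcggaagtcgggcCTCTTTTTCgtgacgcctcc
Rpl15: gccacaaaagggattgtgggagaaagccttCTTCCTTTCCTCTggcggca
Rpl22: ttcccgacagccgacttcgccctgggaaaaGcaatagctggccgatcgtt
Rpl10: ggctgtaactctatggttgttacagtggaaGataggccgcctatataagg

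RefSeq promoters (250 bases before to 50 after the start) were matched by symbol for 61 of the 81 genes. A C at the start followed by at least 4 pyrimidines was found in 14 of these 61 (23.0%), and in 813 of 27025 genes with a promoter in the same table (3.01%). The letters CTTTCC, on either strand, occurred in 32 of the 61 (52.5%) against 29.3% of all promoters, and CCGGAAG, also on either strand, in 25 (41.0%) against 9.93%. CTTTCC can lie within the pyrimidine tract, so these counts overlap. An annotated start can be some bases away from the one used in the cell. The annotated first base of Rpl22 and of Rpl10 is a G, and whether their start in the cell differs was not tested.

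The genes together took 0.363% to 1.08% of the counts of a library. In the ONH at day 30 the share was 0.6% at the lowest, 0.705% at the median and 1.08% at the highest (replicate 6). In the ONP at day 30 it was 0.45%, 0.463% and 0.545%. The lowest ONH replicate at day 30 was above the highest ONP replicate. At day 7 the ONH libraries were at 0.502% (library 1), 0.441% (library 3), 0.8% (library 5) and 0.456% (library 6), and the ONP libraries were at 0.391% (library 1), 0.448% (library 2), 0.388% (library 5) and 0.363% (library 6). These groups overlapped at day 7, and library 5 of the ONH stood above the other ONH libraries of that day and inside the range of day 30.

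**Figure D1:**
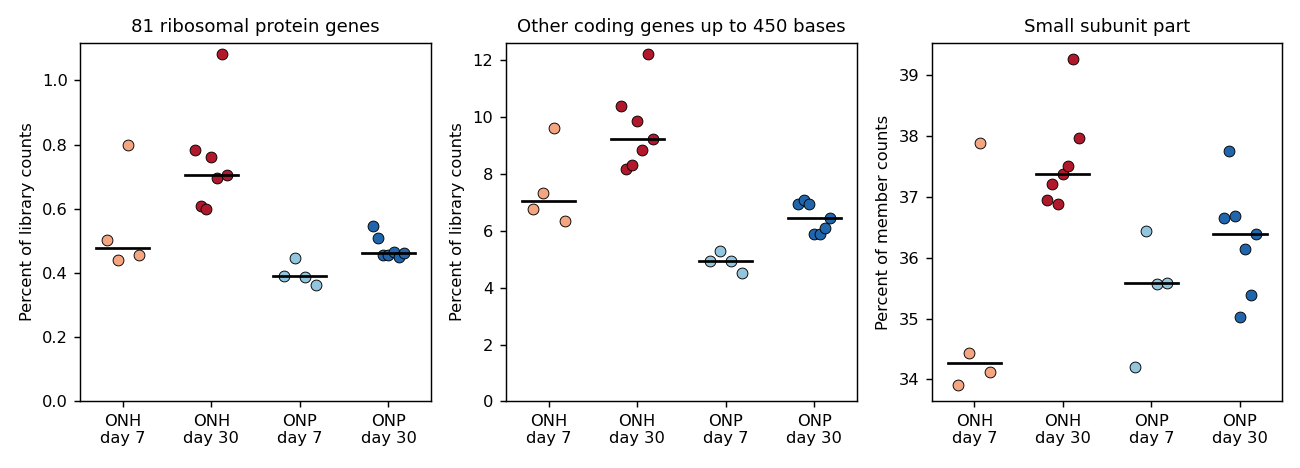
Percent of each library's counts in the 81 ribosomal protein genes (left) and in other protein-coding genes with a coding length up to 450 bases (middle), and the percent of the ribosomal protein counts that came from small subunit genes (right), with 1 point for each library and a line at the group median. The ONH at day 30 was highest in both shares, and 1 ONH library of day 7 sat at 0.8% of counts in the left panel, above the other 3 of its group.

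The small subunit supplied 33.9% to 39.3% of the ribosomal protein counts. Its median was 37.4% in the ONH at day 30, 36.4% in the ONP at day 30, 34.3% in the ONH at day 7 and 35.6% in the ONP at day 7, with 37.9% in ONH library 5 of day 7. Other short genes moved in the same libraries. The 1475 other protein-coding genes with a coding length up to 450 bases took 8.17% to 12.2% of counts in the ONH at day 30, 5.87% to 7.1% in the ONP at day 30, 6.34% to 9.62% in the ONH at day 7 (the highest in library 5) and 4.53% to 5.29% in the ONP at day 7. Mitochondrially encoded genes took 0.265% to 0.633%, 0.0812% to 0.332%, 0.206% to 0.454% and 0.206% to 0.302% in the same order of groups. The part of these shares in the results below was not tested beyond the length correction given with each.

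Levels were compared between genes as mean CPM per kilobase of an annotated transcript, averaged over the 4 groups. The 5 highest were Rps6 (243.6 CPM per kilobase), whose protein is the S6 kinase substrate, Rpl3 (233), which helps form the peptidyl transferase centre, Rps9 (223), Rpl13 (219) and Rpl4 (207), which lines the exit tunnel. At the other end stood the muscle paralog Rpl3l (0.185), the testis paralog Rpl39l (0.089), Rps15a (2.38), Rps12 (6.38) and Rpl12 (6.8). The low values of Rps15a came with a transcript model of 5130 bases around a coding length of 390 bases. Those of Rps12 and Rpl12 came with processed copies that share their sequence: Rps12-ps3 held 55.1% of the counts of Rps12 and itself, and Gm10275 held 69.6% of those of Rpl12 and itself.

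Rpl3l and Rpl39l were the 2 members that did not pass the filter on low counts. Rpl39l had 0 counts in all 8 libraries of day 7, which allows up to 3 counts, or 0.0901 to 0.184 CPM depending on the library, and at day 30 it reached 12 counts in replicate 7 of the ONH. Rpl3l was highest in library 3 of the ONH at day 7 (37 counts, 1.11 CPM) and had 0 counts in 5 of 7 ONH replicates at day 30. Other paralogs were well detected. Rps27l, a paralog of Rps27 and a p53 target, was higher per kilobase than Rps27 (41.7 against 37), and Rpl36al was higher than Rpl36a (57.8 against 20.1). Rps4l, annotated as a processed pseudogene and so no member, had a median of 103 CPM in the ONH at day 30 and 40.5 in the ONP.

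**Figure D2:**
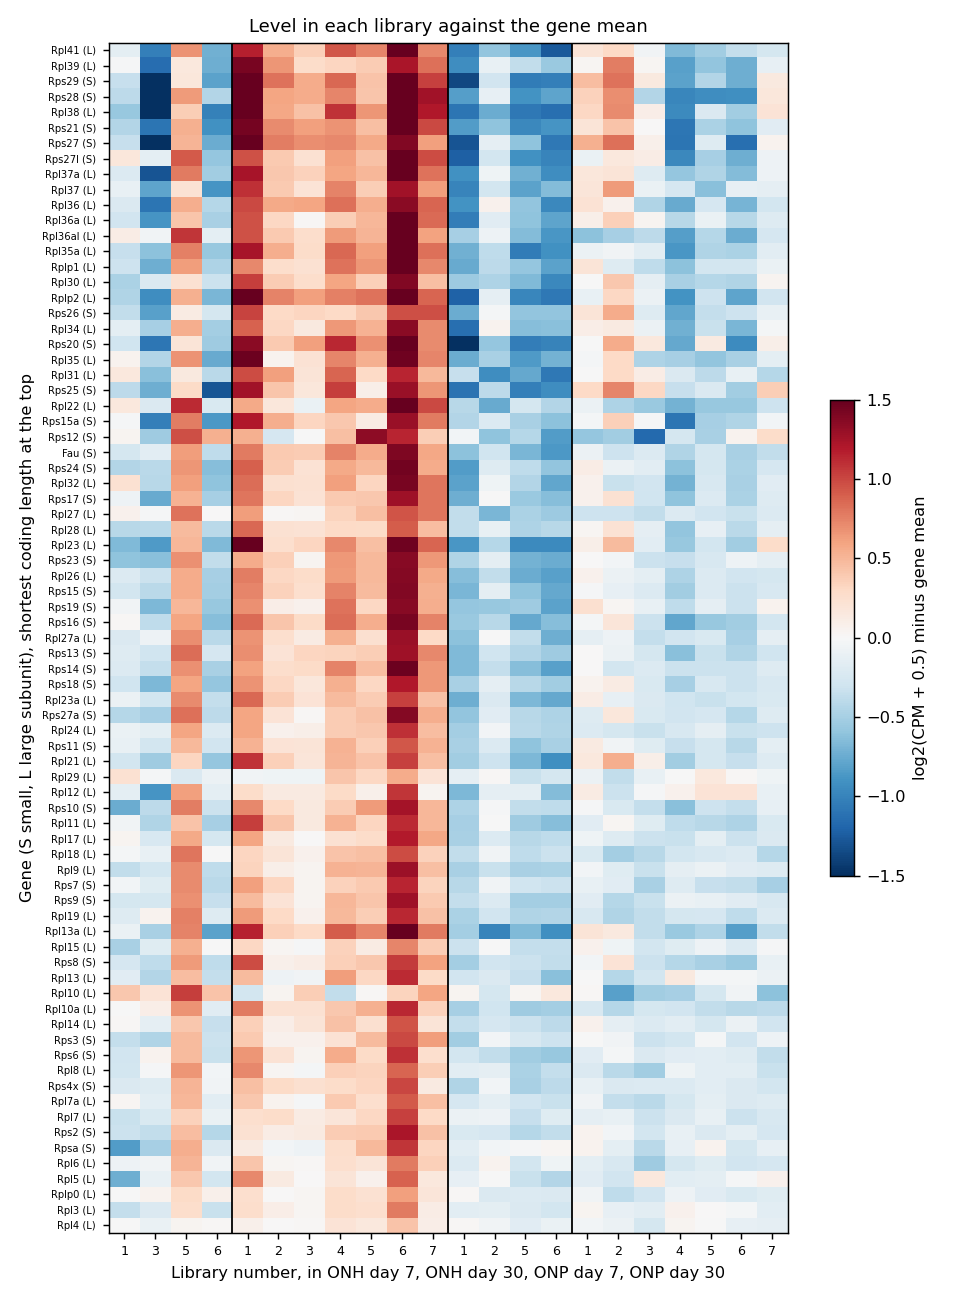
Level of 77 ribosomal protein genes (rows, ordered by coding length with the shortest at the top) in each of the 22 libraries (columns, by group), as log2(CPM + 0.5) minus the mean of the gene. Replicate 6 of the ONH at day 30 was the darkest red column, and the row of Rpl4 at the bottom, the longest, was among the palest.

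The comparison of regions at day 30 asked whether astrocytes of the ONH and ONP differ in ribosome-bound ribosomal protein mRNA in the same mice. 77 of the 79 genes tested were higher in the ONH (edgeR quasi-likelihood test, Benjamini-Hochberg adjusted p-value under 0.05 over all genes), and 0 were lower. Over all 15133 genes tested, 21.8% were called higher. The median log2FC of the 79 genes was 0.79, from 0.23 to 1.34, and that of all genes tested was -0.01. In 46 of the 79 (58.2%) every ONH replicate was above every ONP replicate, against 9.26% of all genes tested. 20% of all genes were called lower. Without replicate 6 of the ONH 73 genes were called higher (19.2% of all genes), with a median of 0.65.

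Rplp2, an acidic protein of the P-stalk that recruits elongation factors, had the highest log2FC. Its level was 56.5, 64.8 and 124 CPM (lowest, median and highest) in the ONH, and 19.5, 30 and 45.5 CPM in the ONP. The groups did not overlap, and the log2FC was 1.34 ± 0.21 (SE, edgeR adjusted p-value 0.000176). Next came Rps21 (log2FC 1.30, edgeR adjusted p-value 0.00186) and Rps28 (1.29, edgeR adjusted p-value 0.00594), short proteins of the small subunit, then Rpl36al (1.28, edgeR adjusted p-value 2.82e-05) and Rpl35a (1.26, edgeR adjusted p-value 0.000193). Rplp1, which pairs with Rplp2, had a log2FC of 1.01, and Rplp0, the base of the stalk, 0.43. The stalk genes thus spanned much of the range, and Rplp0 was higher in every ONH replicate (249 to 379 CPM) than in any ONP replicate (190 to 238 CPM).

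Rpl22, the gene that carries the tag, was also among the larger differences. It was at 25.4, 40.5 and 78 CPM in the ONH and 16.3, 18.3 and 25.6 CPM in the ONP, with a log2FC of 1.16 ± 0.20 (edgeR adjusted p-value 0.000329), and 1 ONH replicate fell within the range of the ONP. The counts do not separate tagged from untagged Rpl22 mRNA. Its paralog Rpl22l1 was higher too (log2FC 0.93, edgeR adjusted p-value 0.00288).

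The smallest differences were those of Rpl4 (log2FC 0.23, edgeR adjusted p-value 0.0306), Rpl29 (0.26, edgeR adjusted p-value 0.0731), Rpl12 (0.31, edgeR adjusted p-value 0.171) and Rpl3 (0.32, edgeR adjusted p-value 0.0192). Rpl29 and Rpl12 were the 2 that did not pass the test. Rpl4 was at 322, 344 and 430 CPM in the ONH and 266, 300.1 and 329 CPM in the ONP. With reads of near-identical copies added to their parent genes, an alternative chosen after the data were seen, Rpl12 had a log2FC of 0.58 (edgeR adjusted p-value 0.00392) and 78 genes were called (23% of all genes were called higher).

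**Figure D3:**
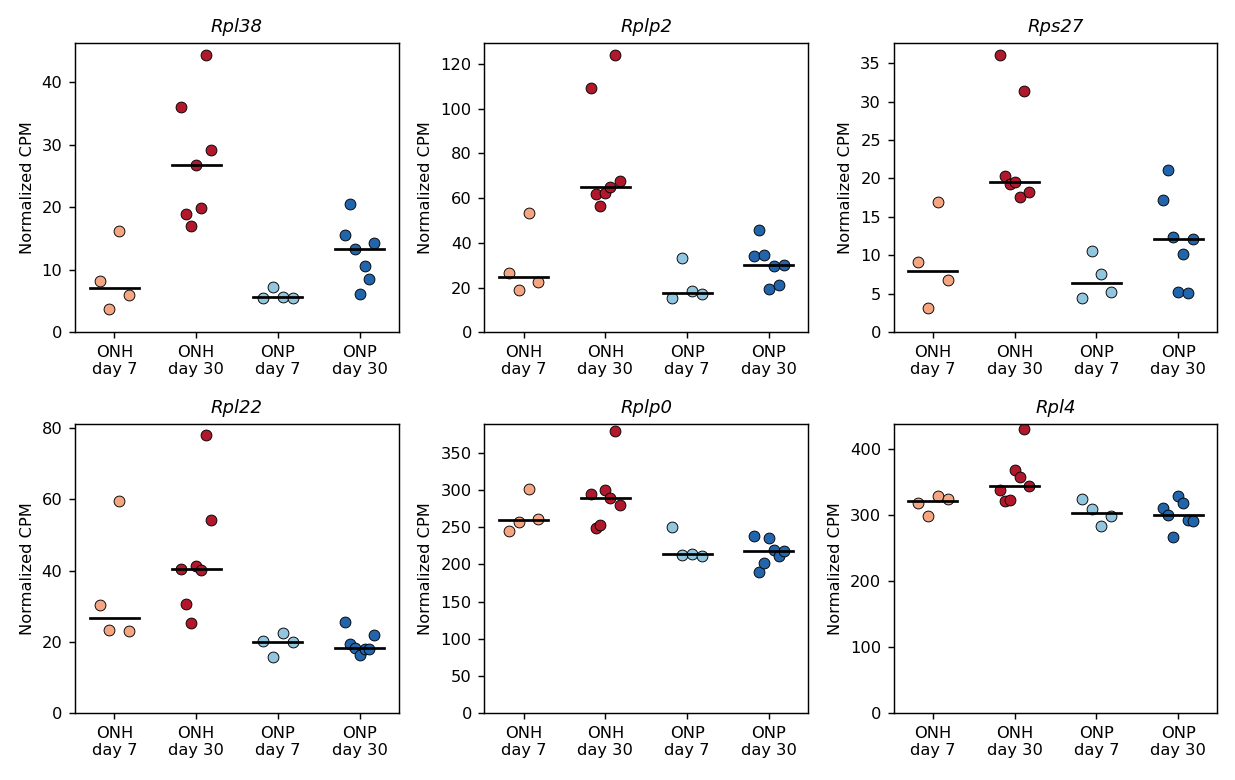
Normalized CPM of 6 ribosomal protein genes in each library (points) with the group median (line). All 6 genes had their highest median in the ONH at day 30, while Rpl4 stayed between 266 and 430 CPM in all 22 libraries.

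Shorter genes had larger differences. Across the 79 genes, log2FC and coding length had a Spearman's rho of -0.77, given as a description, since the genes were measured in the same 14 libraries. The median log2FC was 1.04 for the 10 genes with a coding length up to 300 bases, 0.93 for the 29 of 301 to 450 bases, 0.74 for the 19 of 451 to 600, 0.58 for the 18 of 601 to 900, and 0.32 for the 3 over 900. Other protein-coding genes showed the same order with lower values: 0.69, 0.46, 0.28, 0.14 and -0.14 in the same classes. In the class up to 300 bases all 10 ribosomal protein genes were called higher, against 58.8% of the other genes, and in the class of 601 to 900 bases all 18 were, against 31.5%. With a correction for transcript length and GC content in the model, 39 of the 79 were called higher (20.7% of all genes) and 1 lower, with a median log2FC of 0.31. The lower one was Rpl29 (log2FC -0.25, edgeR adjusted p-value 0.0491), and the share of all genes called lower in that fit is not given here. With a correction for coding length and GC content, chosen after the data were seen, 58 were called higher (21% of all genes) and 0 lower, with a median of 0.43, and 38 were called higher under both. Oligodendrocyte markers moved the other way, as 8 of 10 were lower in the ONH, with sums of 13878.1 to 41864.2 CPM against 26134 to 84781.2 CPM, and all 8 photoreceptor markers were higher (157 to 2630.1 CPM against 28.7 to 76.0). Oligodendrocyte precursor markers were lower in 4 of 5, mural markers higher in 3 of 5 and lower in 1, and 2 of 8 endothelial and 2 of 6 fibroblast markers higher. Neuron markers were higher in 3 of 8 and lower in 1, 1 of 10 microglia markers was lower, and the astrocyte markers themselves were lower in 3 of 10 and higher in 1. Their part in the result was not tested.

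**Figure D4:**
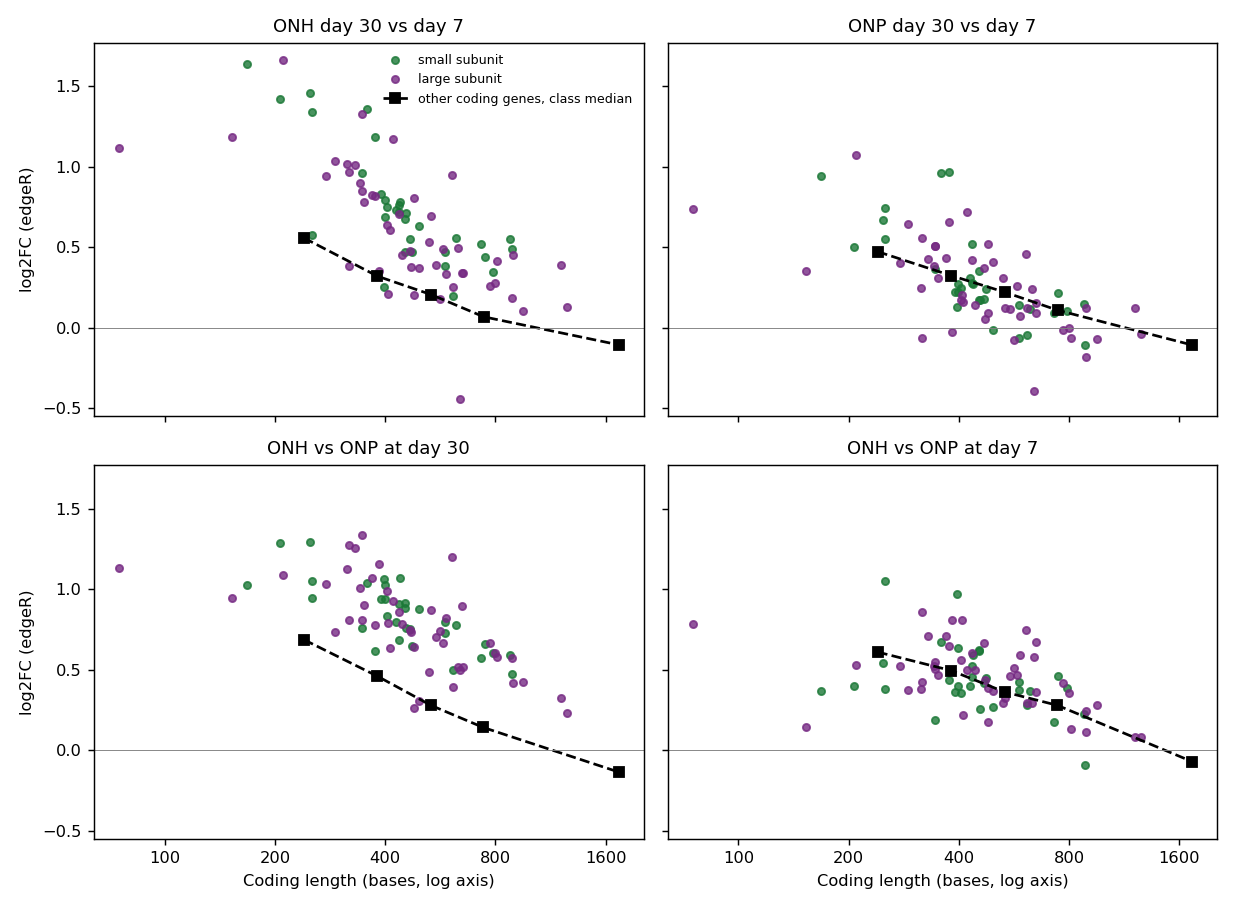
log2FC of each ribosomal protein gene (circles, small subunit green and large subunit purple) against its coding length on a log axis, in the 4 comparisons of 2 groups, with the median log2FC of other protein-coding genes in 5 coding length classes (black squares, at the class's median coding length). The circles lay mostly above the squares for ONH day 30 vs day 7 and ONH vs ONP at day 30, and scattered around them for ONP day 30 vs day 7 and ONH vs ONP at day 7.

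At day 7 the same comparison of regions had 4 libraries on each side. The genes leaned the same way, with 78 of 79 at a positive log2FC and a median of 0.43 (0.07 for all genes tested), but only Rpl27 passed the test, or 1 of 79 against 6.34% of all genes. 18 of the 79 had an unadjusted p under 0.05 (28.9% of all genes did). In 6 of 79 (7.59%) the ONH libraries were all above the ONP libraries, against 9.9% of all genes tested. Rpl27, a large subunit protein, was at 27.9, 26.3, 47.2 and 26.8 CPM in the ONH (libraries 1, 3, 5 and 6) and 20.4, 16.4, 19 and 18.1 CPM in the ONP (libraries 1, 2, 5 and 6). Its log2FC was 0.81 ± 0.24 (edgeR adjusted p-value 0.0466), and with the counts of Rpl27-ps3 and other copies added it was 0.60 (edgeR adjusted p-value 0.151).

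Rps27l (log2FC 1.05), Rps12 (0.97), Rpl36al (0.86) and Rpl22 (0.81) stood beside Rpl27 at the top, with edgeR adjusted p-values of 0.0826, 0.246, 0.0873 and 0.116. With the copies added Rps12 had a log2FC of 0.40 (edgeR adjusted p-value 0.561). Rpl22 was at 30.5, 23.3, 59.4 and 23.1 CPM in the ONH and 20.3, 15.9, 22.5 and 19.9 CPM in the ONP, so the groups did not overlap although the test was not passed. Rpsa, the laminin receptor precursor of the small subunit, was the only gene with a negative value (log2FC -0.09, edgeR adjusted p-value 0.848). Without library 5 of the ONH the median of the 79 genes was 0.11, 58 were positive and 0 passed the test (5.66% of all genes were called higher). With the transcript length and GC correction the median was -0.02, with 35 positive. With the coding length and GC correction it was 0.07, with 54 positive. In the length classes the ribosomal protein genes were close to the other genes, with medians of 0.46 and 0.61 up to 300 bases, 0.52 and 0.50 for 301 to 450, and 0.33 and 0.28 for 601 to 900. All 10 oligodendrocyte markers were lower in the ONH at day 7 (sums of 18981.8 to 36063.4 CPM against 82840.1 to 108311 CPM), as were 3 of 5 precursor and 2 of 10 astrocyte markers. All 8 photoreceptor markers were higher, with a median log2FC of 5.35, as were 2 of 6 mural, 2 of 6 fibroblast and 1 of 8 endothelial markers, and 3 of 8 neuron markers were higher and 1 lower. Their part in the values was not tested.

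In the ONH, day 30 was compared with day 7 to ask how the genes changed over the course of the pressure elevation. 78 of 79 had a positive log2FC, with a median of 0.58 against -0.02 for all genes, but 0 passed the edgeR test, as did 0% of all 15668 genes. The lowest adjusted p-value was 0.18 among the ribosomal protein genes and 0.07 among all genes. 46 of the 79 had an unadjusted p under 0.05, against 13.9% of all genes. DESeq2 called 15 of 80 (1.56% of all genes were called higher by DESeq2), and limma-voom with quality weights called 0. In 9 of 79 (11.4%) the replicates of day 30 were all above the libraries of day 7, against 1.76% of all genes tested.

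The count depended on 1 library. Without library 5 of the ONH at day 7, edgeR called 15 ribosomal protein genes higher and 0 lower (0.763% of all genes were called higher), with a median of 0.90. They were Rpl21, Rpl23, Rpl35a, Rpl36, Rpl38, Rpl41, Rplp2, Rps18, Rps20, Rps21, Rps23, Rps24, Rps25, Rps27 and Rps29. No other library changed the count from 0 when left out. With all 4 groups in 1 fit, 10 were called higher (1.2% of all genes).

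Rpl38, whose protein is known from its part in translating Hox mRNAs, had the highest log2FC (1.67 ± 0.39, edgeR adjusted p-value 0.185). It was at 8.19, 3.68, 16.2 and 5.89 CPM in libraries 1, 3, 5 and 6 of day 7, and at 17, 26.8 and 44.3 CPM (lowest, median and highest) at day 30. The groups did not overlap, and the library nearest to day 30 was library 5. Rps29, a zinc-binding protein of the small subunit, followed (log2FC 1.64), with 12.2, 3.71, 17.6 and 8.75 CPM at day 7 and 21.2, 28.7 and 52.9 CPM at day 30. Rps21 (1.46), Rps28 (1.42), Rps20 (1.36), Rps27 (1.34) and Rplp2 (1.33) came next, each with an adjusted p-value above 0.05. At the low end were Rplp0 (log2FC 0.10), Rpl4 (0.13), Rpl18 (0.18) and Rpl6 (0.18), all large subunit proteins.

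Rpl10, a late-joining protein of the large subunit, was the only gene with a negative value (log2FC -0.44 ± 0.21, edgeR adjusted p-value 0.365). Its level was 76.8, 67.2, 120 and 78.6 CPM at day 7 and 44.7, 59.7 and 87.5 CPM at day 30. A copy named Rpl10-ps3 shares 96.2% of its 31-base words with Rpl10 and held 51.8% of the counts of both. The median of the copy was 49.6 CPM at day 7 and 92.3 CPM at day 30. With the copies added to their parents Rpl10 had a log2FC of 0.12, and all 79 genes were positive. The direction of Rpl10 thus depends on whether the copies are counted with it. Rpl5 has a like partner: Gm15500 held 87.4% of the counts of both.

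Length marked this comparison as well. Spearman's rho of log2FC with coding length was -0.76 over the 79 genes. The median log2FC was 1.26 up to 300 bases (0.56 for other genes), 0.78 for 301 to 450 (0.32), 0.47 for 451 to 600 (0.21), 0.38 for 601 to 900 (0.07) and 0.13 over 900 (-0.11). With the transcript length and GC correction the median of the 79 was 0.28, with 68 positive, and with the coding length and GC correction it was 0.39, with 73 positive. In the same libraries 0 genes of any marker list passed the test. The median log2FC was -3.82 for surface epithelium markers (6 of 6 negative), -2.05 for endothelial, -1.76 for photoreceptor, -1.49 for fibroblast and -1.22 for mural markers. It was -0.55 for neuron, -0.21 for microglia, 0.01 for oligodendrocyte, 0.09 for precursor, 0.11 for astrocyte and 1.56 for pituitary markers (2 of 2 positive). Their part in the values was not tested.

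In the ONP, 11 of 79 genes rose from day 7 to day 30 and 0 fell, or 13.9% called higher against 7.82% of all genes. The median log2FC was 0.22 (-0.01 for all genes), and 65 of the 79 were positive. In 5 of 79 (6.33%) the groups did not overlap with day 30 higher, against 6.2% of all genes tested. Among the genes that rose were Rpl38 (log2FC 1.07), Rps25 (0.97), Rps20 (0.96), Rpl41 (0.74), Rpl23 (0.72), Rpl31 (0.66), Rps19 (0.52), Rpl26 (0.42), Rps14 (0.35) and Rpl9 (0.26), with edgeR adjusted p-values of 0.0171 to 0.0406.

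Rps25, a small subunit protein needed by some internal ribosome entry sites, was at 21.3, 35.3, 22.6 and 24.1 CPM in libraries 1, 2, 5 and 6 of day 7 and at 32.3, 57.3 and 77.4 CPM at day 30. Library 2 was the highest of day 7 and lay inside the range of day 30. Rpl38 was at 5.52, 7.19, 5.62 and 5.4 CPM at day 7 and at 6.19, 13.3 and 20.5 CPM at day 30, so these groups overlapped by library 2 also. Rpl10 was the lowest here too (log2FC -0.39, edgeR adjusted p-value 0.107), and with copies added it fell (log2FC -0.34, edgeR adjusted p-value 0.0211).

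This count was less stable than that of the regions at day 30. Leaving out 1 library at a time gave 0 to 14 called genes, given here with the share of all genes called higher. The count was 0 without library 6 of day 7 (4.33%) and 3 without library 5 of day 7 (6.41%). It was 4 without library 1 of day 7 (6.89%) or replicate 1 of day 30 (5.49%). It was 6 without replicate 2 (6.01%) or replicate 3 (5.68%) of day 30. It was 14 without library 2 of day 7 (5.25%) or replicate 5 of day 30 (10.9%). DESeq2 called 18, and 11.2% of all genes higher. With the transcript length and GC correction 1 gene (Rps20) was called higher (6.91% of all genes) and 4 lower, among them Rpl10, Rpl18 and Rpl6. The median was -0.04. The share of all genes called lower in that fit is not given here, so the 4 cannot be set against it. With the coding length and GC correction only Rps25 was called (5.76% of all genes were called higher), and the median was -0.01. By class, the members' medians were 0.66, 0.31, 0.17, 0.10 and -0.04 from the shortest to the longest, and those of other genes were 0.47, 0.32, 0.22, 0.11 and -0.11. The members called higher were 2 of 10, 6 of 29, 3 of 19, 0 of 18 and 0 of 3 in these classes, and the shares of other genes called higher were 29.3%, 26%, 20%, 11.1% and 4.11%. Oligodendrocyte markers fell over the same interval (8 of 10 called, sums of 82840.1 to 108311 CPM at day 7 and 26134 to 84781.2 CPM at day 30). Endothelial markers were called lower in 5 of 8 (median log2FC -1.99), mural markers in 2 of 5, neuron markers in 2 of 8, and 1 marker each of precursors, photoreceptors and surface epithelium was lower. Of 10 astrocyte markers 1 rose and 1 fell. Their part in the result was not tested.

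**Figure D5:**
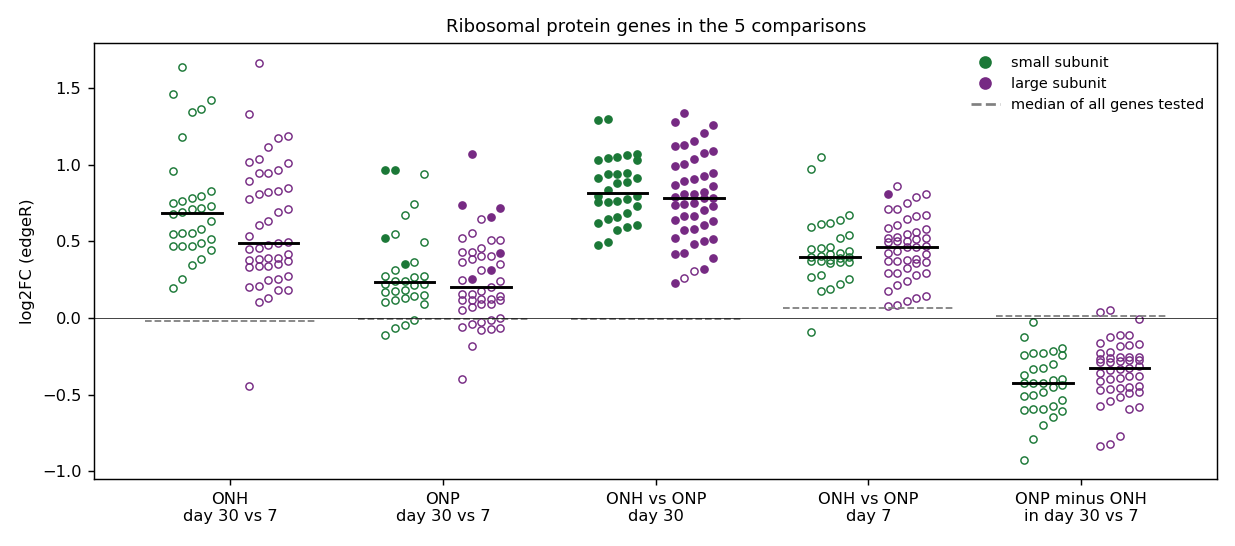
log2FC of each of the 79 tested ribosomal protein genes in the 5 comparisons, split into small (green) and large (purple) subunit, with filled circles for an adjusted p-value under 0.05, black lines at the subunit medians and dashed grey lines at the median of all genes tested. Filled circles made up 77 of 79 for ONH vs ONP at day 30, 11 for ONP day 30 vs day 7, 1 for ONH vs ONP at day 7 and 0 for the others.

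The change over time was then compared between the regions in 1 model. The ONP change minus the ONH change was negative in 77 of 79 genes, with a median of -0.38 (0.01 for all genes). 0 genes passed the edgeR test in either direction, against 0.149% of all genes called higher and 0.394% called lower. DESeq2 and limma-voom called 0 as well, and 1 of 79 had an unadjusted p under 0.05. The most negative values were those of Rps28 (-0.92), Rpl39 (-0.83), Rplp2 (-0.82) and Rps21 (-0.79), and those above 0 were Rpl10 (0.05) and Rpl12 (0.04). Without library 5 of the ONH at day 7 the median was -0.65, and Rps10 was called lower (log2FC -1.07, edgeR adjusted p-value 0.0376). In that fit 0.56% of all genes were called higher, against 0.149% with all libraries. The share of all genes called lower in that fit, the direction of Rps10, is not given here. The call of Rps10 can therefore not be set against it. A difference between the regions in the change over time was therefore not shown for these genes. The call of Rps10 depended on leaving out that library.

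The subunits were set side by side in each comparison. In the ONH over time the median log2FC was 0.69 for 32 small subunit genes and 0.49 for 47 large subunit genes, a difference of 0.20. The spread of the matching quantity between libraries (the mean log2 CPM of the small minus that of the large subunit genes, pooled SD within groups) was 0.07. With the corrections for transcript length or coding length the difference was 0.07 and 0.10. In the other comparisons the small subunit minus the large was 0.03 (ONP over time, spread 0.08), 0.04 (ONH vs ONP at day 30, spread 0.07), -0.06 (ONH vs ONP at day 7, spread 0.09) and -0.10 (ONP minus ONH change, spread 0.08). The difference was smaller than this spread in 3 of the 5 comparisons. It was larger in the ONH over time without a length correction, and in the ONP minus ONH change. The spread is that of single libraries and not of a difference between groups, so it does not show whether the subunits differed. No test was made of these differences. Both subunits had nearly all genes called at day 30, with 32 of 32 small and 45 of 47 large subunit genes higher in the ONH.

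Genes with an annotated pyrimidine start were also compared with the other members that have a promoter sequence, as a description. For ONH vs ONP at day 30 the median log2FC was 0.94 in the 14 with the start and 0.79 in the 45 without it, and for ONH day 30 vs day 7 it was 0.77 and 0.49. At day 7 the regions differed by 0.42 and 0.44. The 14 genes were also shorter, with a median coding length of 394.5 bases against 444.

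Ribosomal proteins outside the naming rule, and Rpl22l1 and Rpl7l1, which are named as like a ribosomal protein, were tested in the same fits. Rps3a1, Rack1, Rpl22l1 and Rpl7l1 were all higher in the ONH at day 30, with log2FC of 0.78 (Rps3a1), 0.93 (Rpl22l1), 0.50 (Rack1, a scaffold on the small subunit) and 0.34 (Rpl7l1), and edgeR adjusted p-values of 0.00136 to 0.00288. None of these 4 passed the test between the regions at day 7, or from day 7 to day 30 in either region.

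Other mRNAs known or thought to carry a TOP tract, mostly translation factors, were higher in the ONH at day 30 in 17 of 27 genes and lower in 2 (Cct4 and Eif3l), against 21.8% and 20% of all genes, with a median log2FC of 0.46. The largest were Vim (log2FC 1.51), an intermediate filament of astrocytes, and Snhg8 (1.46) and Gas5 (1.07), hosts of small nucleolar RNAs. In the ONP from day 7 to day 30 only Gas5 rose (log2FC 0.82), while Vim, Eef2 and Cct4 fell, by 0.82, 0.36 and 0.28 on the log2 scale, where 7.82% of all genes were called higher and 9.21% lower. The median of the 27 was -0.02, against 0.22 for the ribosomal protein genes. In the ONH over time 0 of 27 passed the test, with a median of 0.23.

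Genes of ribosome biogenesis act in making rRNA and assembling it with the proteins. At day 30 14 of 56 were higher in the ONH, a share near the 21.8% of all genes, and 6 were lower (20% of all genes), with a median log2FC of 0.05. Among the genes called, the largest changes were those of Nop10 (1.07), Polr1d (0.93), Imp3 (0.92) and Ebna1bp2 (0.70), all higher in the ONH. In the ONP from day 7 to day 30 2 rose (Znhit3 and Nhp2) and 8 fell (7.82% and 9.21% of all genes). The largest changes among these called genes were those of Bop1 (log2FC -0.53), Znhit3 (0.52), Mphosph10 (-0.51) and Nufip1 (-0.46). Over all 56 genes the log2FC ran from -1.10 to 0.60, with a median of -0.12.

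Of 22 genes of the mTORC1, LARP1 and Myc control of TOP mRNAs, 5 were higher and 5 lower in the ONH at day 30, both near the shares of all genes (21.8% and 20%), so the counts set the list apart in neither direction. Higher were Pdcd4 (log2FC 1.10), Larp1 (0.62), Larp4b (0.44), Rheb (0.36) and Rptor (0.33). Lower were Mycl (-2.39), Mycn (-2.06), Myc (-1.64), Deptor (-1.62) and Mlst8 (-0.36). In the ONP from day 7 to day 30 4 rose (Deptor, Rheb, Pdcd4 and Eif4e) and 4 fell (Tsc1, Tsc2, Larp4 and Larp1), against 7.82% and 9.21% of all genes, with Tsc1 at a log2FC of -1.02 (edgeR adjusted p-value 0.00415). Larp1 was thus higher in the ONH at day 30 and fell in the ONP over time (log2FC -0.56, edgeR adjusted p-value 0.0163). In the ONH over time 0 of 21 passed the test.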

How the data were processed

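RNA-seq libraries of HA-tagged astrocyte ribosomes were used (22 libraries, polyA RNA, Smart-Seq HT kit). Per the labels and the study's methods, the authors aligned with STAR 2.6.1d, quantified with Salmon 0.14.2 on Ensembl 94 (mm10) and summed per gene. The values the authors deposited are these expected counts, given as whole numbers, without normalization, and these values alone were analysed; a table of variance-stabilized values was not used. Day 7 columns carry numbers that do not map to the replicate names, so day 7 libraries are named by column number and were not paired. No column was left unmapped.

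The counts were tested with edgeR 4.0.16 in R 4.3.3 (filterByExpr, TMM, glmQLFit, glmQLFTest, adjustment over all genes tested). Each comparison of 2 groups used those groups only, and the interaction used all 4. The SE is the log2FC divided by the root of F. CPM values were scaled by TMM over all 22 libraries. P-values measure the spread between pools. Intervals by depth cover counting error only, as amplified reads are not independent molecules.

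Positions, coding lengths and transcript lengths came from GENCODE M21 (GRCm38), with the middle one by length of the principal transcripts. Genes sharing at least 50% of their 31-base words with a member were taken as copies. Genes were named by a rule: Rpl22, the stalk genes, Rpsa and paralogs, and the 5 highest and 5 lowest log2FC of each comparison. The rule also took the extremes of level and length, and ribosomal proteins or like genes whose symbols do not match. A few genes are not reported here. Members beyond this rule that are named because they passed a test, and genes named from the lists beyond the 4 largest called changes, were chosen after their values were seen. The members and lists were chosen with earlier results of these data known. Alternatives were DESeq2 1.42.0, limma-voom 3.58.1, RLE, library size, scaling without members and mitochondrial genes, other filters, length and GC corrections, added pseudogenes, all groups in 1 fit, the replicate block and each library left out. The scripts were tested on simulated data. Replicates were compared and no pair agreed within sampling noise.

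Both regions were dissected from the same mice per the study's methods. The correlation of the deviations of same-numbered libraries from their group means was 0.0754 to 0.495 over the 7 pairs of day 30. Only in pair 7 was the same-numbered library the best match on both sides. The replicate block assumes that same-numbered libraries share mice.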

Additional observations from a re-analysis of the deposited data

Results flagged for a closer look

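11 of 56 values examined (14 quantities in 4 groups) had a sample farther from the rest of its group than the 95% limit allows. For independent values chance gives about 1 in 20. These values were not independent, as they are related genes and sums of genes in the same libraries. Most came from library 5 of the ONH at day 7 and replicate 6 of the ONH at day 30. The count can therefore not be set against chance. The share of counts in ribosomal protein genes was 0.800% in library 5 of the ONH at day 7, next to 0.502%, and 1.08% in replicate 6 of the ONH at day 30, next to 0.784%. In library 5 the small subunit also made up 37.9% of the ribosomal protein counts, next to 34.4%. In the same library Rpl36al was at 84.8 CPM and Rpl27 at 47.2 CPM. In replicate 6 of the ONH at day 30 Rplp0 was at 379 CPM, Rpsa at 345 CPM and Rpl4 at 429.6 CPM. In the ONP at day 7, Rpl38 was at 7.19 CPM and Rplp2 at 33.3 CPM in library 2, and Rplp0 at 250 CPM in library 1.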

How the results depend on the processing

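The comparison of regions at day 30 kept its direction and most of its calls: the count was 73 to 78 and the median log2FC 0.65 to 0.88 with each library left out. The replicate block, which assumes that same-numbered libraries share mice, gave 76 called genes and a median of 0.76. Its small minus large subunit difference was 0.06, and this block moved no count by over 1.5 times. Transcript length and GC correction gave 40 called genes, 39 higher and 1 lower, and a median of 0.31 (0.43 by coding length). In the transcript length fit 20.7% of all genes were called higher. Single genes changed sign: Rpl15 (-0.045), Rpl29 (-0.25), and by coding length Rpl41 (-0.038 at day 30 between regions, -0.050 in the ONP over time).
The copies added and the coding length correction were chosen after seeing the data. At day 7 the regions also came from the same mice, but its columns could not be tied to the replicate names, so the replicate block was not run there. The comparisons over time used different mice and were not paired, and the replicate block was not run for them or for the ONP minus ONH change.
In the ONH over time, edgeR's 0 became 15 with DESeq2, 10 in 1 fit of all groups and 0 to 15 with each library left out, with a median of 0.46 to 0.90 and a subunit difference of 0.16 to 0.23. The subunit difference was 0.066 and 0.10 with the length corrections. In the ONP over time the 11 became 18 with DESeq2, 20 by library size only and 2 in 1 fit of all groups. In these fits 11.2%, 12.5% and 3.36% of all genes were called higher. The count was 5 with the transcript length and GC correction, of which 1 was higher and 4 were lower. In that fit 6.91% of all genes were called higher, and the share called lower is not given here. The count was 1, a higher gene, with the coding length and GC correction, where 5.76% of all genes were called higher. It was 0 to 14 with each library left out, all of them higher. The median of this comparison was -0.040 and -0.0078 with the corrections and 0.18 to 0.31 with each library left out. Its subunit difference was -0.010 without a filter and -0.012 to 0.074 with each library left out.
Between regions at day 7 the 1 called gene became 3 with DESeq2 and by library size only. In these fits 9.79% and 9.44% of all genes were called higher. The count was 7 in 1 fit of all groups, where 11.9% of all genes were called higher. It was 0 with RLE, no filter, both length corrections, pseudogenes or copies added, and 0 to 3 with each library left out. The median of this comparison was -0.018 with the transcript length correction and 0.073 with the coding length correction. With each library left out the median was 0.11 to 0.54, and the subunit difference was -0.13 to -0.02. For the ONP minus ONH change the count was 0 to 1 with each library left out, and the 1 gene was lower. The median was -0.65 to -0.20 and the subunit difference -0.19 to -0.087 with each library left out. The subunit difference was -0.18 with limma-voom. Where the cause of a change is not shown by the alternative itself, the cause was not tested. Of 4914 values for 39 single genes, 198 changed sign without passing the test in either fit.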
